A study of Homo sapiens with 18 samples.

Results

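Acis cells (A2780cis) are the cisplatin-resistant derivative of the A2780 human ovarian carcinoma line, obtained by chronic exposure of A2780 cells to cisplatin. Their open chromatin was compared before and after cisplatin through the accessible peaks called from ATAC-seq, in which a transposase cuts exposed DNA and leaves adapters there. The untreated cells gave 24485 peaks and the treated cells 27321, so 51806 of the 118944 peaks in the 4 lists of the series were taken. A control peak with no base in common with any cisplatin peak was called lost, a cisplatin peak with no base in common with any control peak was called gained, and the rest were called kept.

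The Acis cisplatin culture received 200 µM cisplatin for 3 h, and the Acis control culture received none over the same time. Both came from cultures given 1 µM cisplatin every 3 passages, so the control cells were not naive to the drug. Each reaction held 100000 cells, which had been incubated with DNase in the medium. The control list joined 3 replicates and the cisplatin list 2, and a peak stayed in a list only where all replicates of that condition had it, so control peaks had to pass in 1 more replicate. Each condition is thus a single list, with no spread between replicates, and none of the differences between the peak lists below could be tested. RNA was counted in 12 libraries, 3 for each of Acis control, Acis cisplatin, A2780 control and A2780 cisplatin (also 200 µM for 3 h). The 6 Acis libraries held 4130644 to 4720732 counts. For RNA the replicates were separate wells, so the p-values measure the spread between those samples, which may be technical. Of 30 marker genes, PAX8, WT1, CDH1 and KRT19, which mark ovarian or epithelial cells, were not among the 23622 genes of the count table, while KRT18 was at 143 ± 9.68 normalized counts and the fibroblast and stem cell marker THY1 at 516 ± 3.13 (SD, n = 3 control libraries). The other fibroblast markers were at 16.4 counts (COL1A1) or lower in the control, and the epithelial marker KRT8 at 4.05. EPCAM, also epithelial, was not among the genes tested for RNA but had a promoter peak in both lists. No endothelial marker and 1 of 6 immune markers had a peak at its promoter, in both lists.

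Open chromatin marks promoters, where transcription starts, and distal elements such as enhancers and insulators, where regulatory proteins displace nucleosomes. Cisplatin binds mainly neighboring guanines on 1 strand and forms crosslinks that stall RNA polymerase and that nucleotide excision repair removes. A damaged cell induces p53 target genes and immediate-early genes, the latter encoding short-lived regulators such as FOS and JUN that are often transcribed from promoters already open.

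The strongest lost and gained peaks are shown first by their sequence, since they are the regions in which the lists differed most. The following are 100 bases of the plus strand of hg38 centered on the summit, with guanine pairs and their complement (GG and CC), where cisplatin mostly binds, in capitals. The first 3 were lost and the other 2 were gained, taken in order of fold enrichment and leaving out peaks over untranslated regions and low-complexity sequence, and 1 further gained peak that is not reported here.
Lost, chr4:50556097-50556196, intergenic: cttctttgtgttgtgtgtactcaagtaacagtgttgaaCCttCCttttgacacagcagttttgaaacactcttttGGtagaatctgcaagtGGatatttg
Lost, chr15:62345108-62345207, intergenic near MIR6085: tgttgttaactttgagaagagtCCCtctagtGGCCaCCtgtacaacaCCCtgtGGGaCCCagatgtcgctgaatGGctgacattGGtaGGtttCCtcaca
Lost, chr12:69291097-69291196, intergenic near C1GALT1P1: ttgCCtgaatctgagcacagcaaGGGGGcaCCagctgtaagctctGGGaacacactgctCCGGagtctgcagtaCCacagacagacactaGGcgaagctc
Gained, chrX:109054255-109054354, promoter of ENSG00000275110: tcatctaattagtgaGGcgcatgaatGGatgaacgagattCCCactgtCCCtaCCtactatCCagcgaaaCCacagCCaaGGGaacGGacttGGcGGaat
Gained, chr16:84062906-84063005, intron near MBTPS1: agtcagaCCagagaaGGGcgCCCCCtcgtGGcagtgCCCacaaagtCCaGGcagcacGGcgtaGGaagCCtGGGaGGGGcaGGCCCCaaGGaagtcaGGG

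The lost sequences held 4, 15 and 12 such guanine pairs on either strand, and the gained ones 15 and 27. Their GC content was 38%, 50% and 57% for the lost and 50% and 67% for the gained sequences. The 30 summit bases of the chromosome 4 peak occurred 491 times in the genome, and those of the chromosome X peak 8 times, so reads there could not be placed with certainty. The other 3 summits were unique.

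Most accessible regions of Acis cells were listed in both conditions. Of the control peaks, 21571 were kept and 2914 (11.9%) were lost, and of the cisplatin peaks 21917 were kept and 5404 (19.8%) were gained. Kept peaks paired 1 to 1 in 21157 cases, 98.1% of the kept control peaks. Gained peaks outnumbered lost ones in the lists as deposited, but the balance followed the number of peaks taken from each list. Among the 20000 peaks of each list with the highest -log10 q (the significance that the peak caller gives), 2483 (12.4%) were lost and 2338 (11.7%) gained. Lists of equal size whose kept peaks mostly pair 1 to 1 must give nearly equal counts, so this cut could not decide the balance. A -log10 q of at least 20 in both lists kept 23034 control and 20568 cisplatin peaks. Of these, 4648 control peaks (20.2%) were lost and 2024 cisplatin peaks (9.84%) gained. The median -log10 q was 96.8 in the control list and 41.4 in the cisplatin list, so an equal cut was not of equal strictness. A net gain or loss of open regions was therefore not determined by these lists.

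Lost and gained peaks were weak peaks. The fold enrichment, which is the pileup of reads at the summit over the local background, had a median of 7.47 in lost and 7.26 in gained peaks, against 13.7 in kept control and 12.3 in kept cisplatin peaks. The median -log10 q was 28.5 in lost and 116 in kept control peaks, and 16.1 in gained and 55.0 in kept cisplatin peaks. Lost peaks were 476 bp wide at the median and kept control peaks 645 bp. Gained peaks were 365 bp wide and kept cisplatin peaks 548 bp. No lost peak reached a fold enrichment above 26.7 and no gained peak one above 31.7, while kept peaks reached 53.7 and 53.4.

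**Figure D1:**
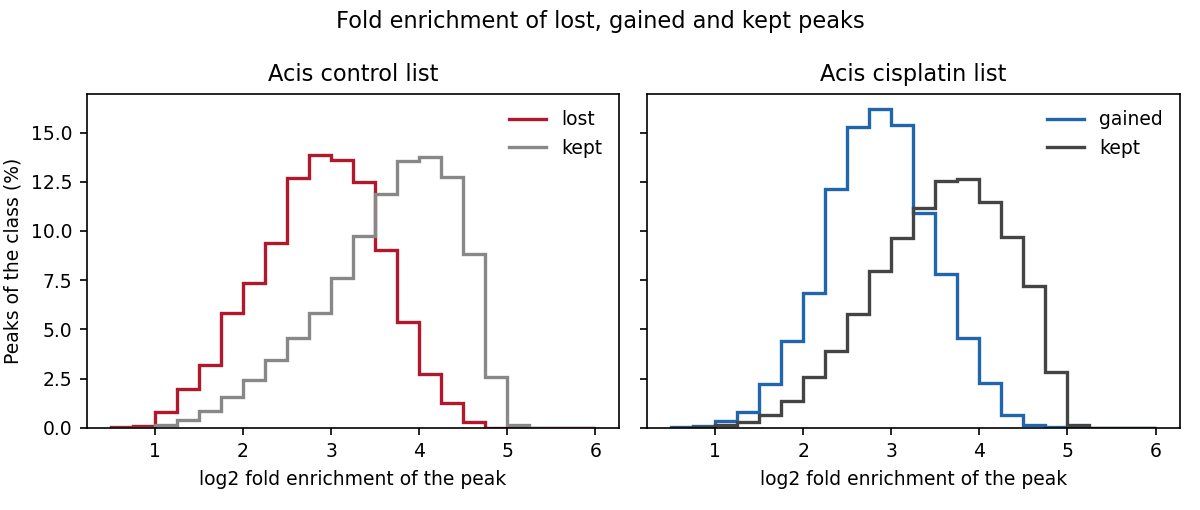
Share of the peaks of each class (vertical axis, %) by log2 fold enrichment (horizontal axis), for the Acis control list on the left and the Acis cisplatin list on the right. Lost and gained peaks crowd at lower fold enrichment (medians 7.47 and 7.26) than kept peaks (13.7 and 12.3), and the distributions overlap.

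When each list was divided into 10 equal bins by -log10 q, no peak of the top 2 bins of the control list was lost. The lost share then rose from 0.122% in the next bin to 4.82% in bin 6 and 52.2% in the weakest. The gained share rose from 0.0366% (1 peak) in the top bin of the cisplatin list to 9.74% in bin 5 and 64.2% in the weakest. Control peaks with a -log10 q of at least 50, looked up in the whole cisplatin list, were lost in 563 of 17949 cases (3.14%). The same search from the cisplatin side found 296 gained of 11998 (2.47%).

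**Figure D2:**
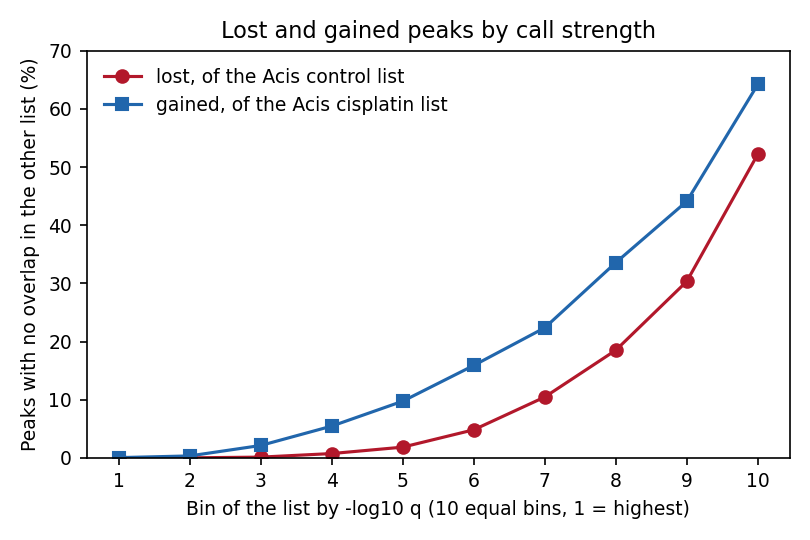
Share of peaks with no overlap in the other list (vertical axis, %) in each of 10 equal bins of a list ranked by -log10 q (horizontal axis, 1 = highest), with circles for lost peaks of the control list and squares for gained peaks of the cisplatin list. Both shares climb to the weakest bin, where 52.2% of control peaks were lost and 64.2% of cisplatin peaks gained.

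Peak names in both lists carried call numbers in genomic order with gaps, which showed how many calls had not been listed. The highest number was 75621 in the control list, of which 32.4% were listed, and 48240 in the cisplatin list, of which 56.6% were listed. Between the 2 control peaks that flanked a gained peak there was at least 1 unlisted control call in 5375 of 5397 cases, and no call in 22 (0.408%). The median was 4 unlisted calls over 112942 bp, and long intervals hold more calls of any kind. Of all 24462 intervals between neighboring control peaks 38.3% held no unlisted call, and of all 27298 between cisplatin peaks 60.0%. For lost peaks, 165 of 2913 (5.66%) had no unlisted cisplatin call between the flanking cisplatin peaks, with a median of 2 calls over 83348 bp. An unlisted call in such an interval may lie anywhere in it, so its overlap with the gained or lost peak was not tested, and whether the numbers belong to calls on pooled replicates is not stated. Absence from a list does not by itself show that a region was closed.

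Gained and lost peaks mostly stood apart from peaks of the other condition. The nearest control peak lay 17771 bp from a gained peak at the median, and the nearest cisplatin peak 12685 bp from a lost one. Within 500 bp, 415 gained (7.68%) and 167 lost peaks (5.73%) had a neighbor of the other list, and 28.0% and 22.4% had none within 50 kb. Between listed peaks of the other condition, 60.4% of gained and 71.7% of lost peaks stood alone. Runs of 3 or more gained peaks numbered 231 and held 777 peaks (14.4%), and runs of 3 or more lost peaks numbered 79 and held 278 (9.54%). Gained peaks made up 19.8% of their list and lost peaks 11.9% of theirs, and a larger share gives longer runs in any order. Run lengths were not compared with a random order. A run of 6 gained peaks covered chr1:223556807-223749389 at the calpain genes CAPN8 and CAPN2, with fold enrichments of 5.01 to 11.3 and unique summits throughout, and all 6 were also peaks of A2780 cisplatin and 5 of A2780 control. The longest lost run had 8 peaks at chr7:58318297-58372350, all with repeated summit sequence, and 6 overlapped A2780 control and 6 A2780 cisplatin peaks.

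Kept peaks changed little in height. Over the 21157 pairs the ratio of cisplatin to control fold enrichment had a median of 0.957 (quartiles 0.852 and 1.06), and 61.6% of the pairs were lower after cisplatin. Pairs more than 1.5 times higher numbered 259 (1.22% of all pairs) and pairs more than 1.5 times lower 659 (3.11%). The peaks were narrower in 80.7% of pairs, with a median width ratio of 0.914, and the summits lay 6 bp apart at the median. Promoter pairs had a median height ratio of 0.972 and other pairs one of 0.931. With the pairs in 4 equal bins by mean fold enrichment, the ratio was 0.997 in the weakest bin, 0.909 and 0.924 in the middle bins and 0.985 in the strongest. Of the control peaks, 364 overlapped several cisplatin peaks, and 26 cisplatin peaks overlapped several control peaks. The A2780 lists, like those of Acis, joined 3 control and 2 cisplatin replicates. Kept A2780 peaks had a median width of 687.5 bp in the control and 609 bp in the cisplatin list. Their median fold enrichment was 11.997 and 9.80. Whether the lower height and width in Acis pairs came with cisplatin or with the number of replicates joined was not tested.

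Among kept pairs with a fold enrichment of at least 5 in both lists, the promoter of PDGFC, a platelet-derived growth factor, rose most. At chr4:156774149-156774747 the fold enrichment went from 5.59 to 11.7, a ratio of 2.09. At the promoter of the forkhead factor FOXJ3 it went from 7.93 to 15.3. At an intronic peak nearest to PDE4D, which encodes a cyclic AMP phosphodiesterase, it went from 5.53 to 10.3. The RNA of all 3 genes was lower after cisplatin, with log2 fold changes of -0.16 for PDGFC (833 to 748 normalized counts, adjusted p = 0.0159), -0.27 for FOXJ3 (765 to 635, adjusted p = 3.0e-05) and -0.37 for PDE4D (1878 to 1452, adjusted p = 4.81e-09). In the same set of pairs, the promoter of the synaptic adhesion gene NRXN2 at chr11:64723146-64723883 fell most. The fold enrichment there went from 13.4 to 5.10, a ratio of 0.380. NRXN2 RNA was low, at 32.6 and 28.0 normalized counts, and did not pass the test (adjusted p = 0.532). An intergenic peak upstream of GNA12, a G protein subunit, went from 16.3 to 6.70, and the RNA of GNA12 fell by 0.28 on the log2 scale (adjusted p = 4.4e-04). The RNA of these genes was thus lower or did not pass the test, whether the peak had risen or fallen.

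The 10 strongest lost peaks had fold enrichments of 22.0 to 26.7 and none lay at a promoter. The strongest was in the repeated sequence of chromosome 4, and 5 were intronic. Of these, 1 was nearest to the start of GSN (23.9), which encodes the actin-severing protein gelsolin, 1 to ELMO1 (23.6), a regulator of engulfment and cell migration, and 1 to the SIN3A complex gene ARID4B (22.1). Of the 10, 4 were also A2780 control peaks and 5 A2780 cisplatin peaks. ARID4B RNA fell from 756 ± 30.4 to 585 ± 5.02 normalized counts (adjusted p = 3.04e-07), and that of GSN was 309.9 and 303 (adjusted p = 0.816). RNA of the pseudogene C1GALT1P1, nearest to the third peak, rose by 1.56 ± 0.50 (SE) on the log2 scale from 3.93 ± 2.64 counts (adjusted p = 0.0245), low counts that reads of its parent gene could touch. The 10 strongest gained peaks had fold enrichments of 22.6 to 31.7 and 4 lay at promoters. The strongest lay near the end of chromosome 13 by the pseudogene RPL23AP97, and its 30 summit bases occurred 945 times in the genome. Others lay at the promoter of C7orf57 (24.5), in an intron nearest to MBTPS1 (23.9), which encodes the protease that cleaves SREBP proteins, and downstream of the start of the ubiquitin hydrolase UCHL1 (22.9). MBTPS1 RNA was at 851 and 811 normalized counts (adjusted p = 0.281) and UCHL1 RNA at 30.0 and 32.2 (adjusted p = 0.820). C7orf57 was not among the genes tested.

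Lost and gained peaks differed in where they lay. A peak was placed at a promoter when it overlapped the 500 bp either side of an annotated transcript start. Promoters held 16.99% of lost peaks (95% Wilson interval 15.7 to 18.4, counting error only) and 34.3% of gained peaks (33.1 to 35.6), against 52.7% of kept control and 52.4% of kept cisplatin peaks. Intergenic DNA held 39.1% of lost, 28.1% of gained and 21.5% of kept control peaks. The median distance to a transcript start was 7666 bp for lost, 2888.5 bp for gained and 573 bp for kept peaks. Read the other way, 4.17% of control promoter peaks were lost, against 18.1% of exonic, 18.9% of intronic and 19.7% of intergenic ones. Of cisplatin promoter peaks 13.9% were gained, against 25.9%, 26.4% and 24.2% in the other places.

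**Figure D3:**
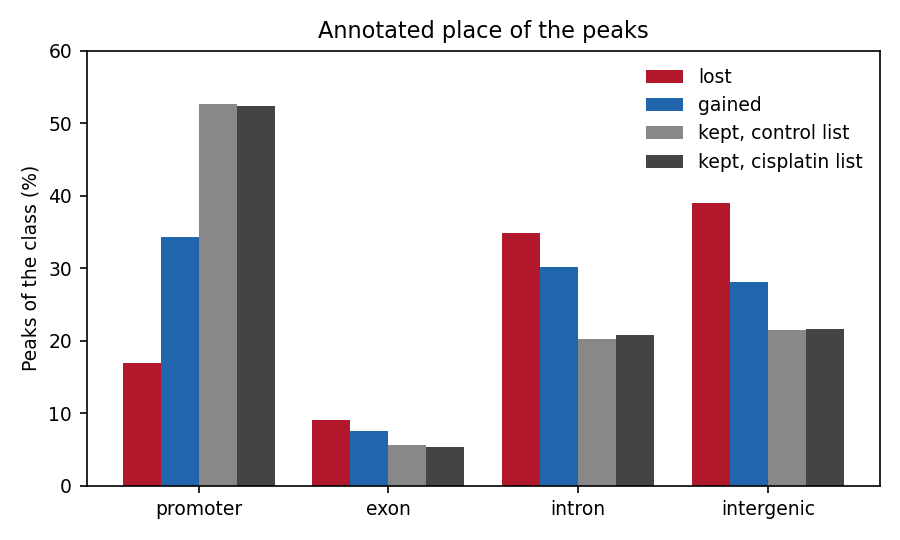
Share of the peaks of each class (vertical axis, %) at promoters, exons, introns and in intergenic DNA, with 1 bar for each of lost, gained, kept control and kept cisplatin peaks. Promoters held 16.99% of lost, 34.3% of gained and 52.7% and 52.4% of kept peaks.

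Weak kept peaks lay at promoters less often than strong ones, and peaks of like strength were therefore compared. Below a fold enrichment of 5 the promoter share was 18.1% in lost, 42.9% in gained, 24.5% in kept control and 29.0% in kept cisplatin peaks, so gained peaks were above kept ones there. Among peaks with a fold enrichment of 5 to 10, the promoter share was 18.4% in lost, 33.5% in gained, 40.03% in kept control and 37.9% in kept cisplatin peaks. Weak kept peaks were those in the lowest of 4 equal bins of kept peaks by -log10 q. They had 31.2% (control) and 28.9% (cisplatin) at promoters, so gained peaks stood close to them and lost peaks below. Weak kept control peaks had a median -log10 q of 38.3, above the 28.5 of lost peaks, so these sets were not of equal strength. At a fold enrichment of 15 or more the shares were 12.1% of 174 lost, 40.3% of 243 gained and 66.6% of 9311 kept control peaks. Among the 20000 strongest peaks of each list, 23.4% of lost and 41.6% of gained peaks were at promoters. In A2780 cells, compared in the same way, 12.6% of 9329 lost and 29.5% of 6152 gained peaks were at promoters, so the order of lost and gained was alike in both lines.

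The sequence under the peaks differed along with their place. In the 200 bases around the summit, the median GC content was 51.5% in lost, 56.5% in gained and 60.5% in kept control peaks, and 54.5% in weak kept control peaks. Guanine pairs on either strand numbered 14.5, 18 and 19.5 per 100 bases. Within promoters the order of lost and gained held, at 61.0% GC in lost, 66.5% in gained and 64.5% in kept peaks, so gained promoter peaks were the richest. Outside promoters the medians were 49.5%, 51.5% and 53.5%.

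Motifs were searched as letters on both strands of the same windows. The GC box (GGGCGG), which SP and KLF factors bind, occurred in 11.6% of lost, 24.6% of gained and 36.9% of kept control peaks, and in 33.9% of all control peaks. An ETS site (CCGGAAG) occurred in 1.24%, 2.66% and 8.78%, with 7.88% over all control peaks. A CCAAT box (CCAAT), bound by NF-Y, occurred in 22.2%, 20.8% and 27.6% (26.9% over all), and an E-box (CACGTG), read by MYC and its relatives, in 3.02%, 5.14% and 5.67% (5.36% over all). The AP-1 site (TGANTCA), bound by FOS and JUN proteins, differed less, with 4.74%, 5.77% and 4.38% (4.42% over all). The core motif of the insulator protein CTCF occurred in 12.01%, 11.05% and 10.9% (11.1% over all), but outside promoters in 12.9%, 14.3% and 18.2%. Weak kept peaks outside promoters had it in 12.8% (control) and 13.7% (cisplatin). A TEAD site (GGAATG) occurred in 14.2%, 11.3% and 10.8% (11.2% over all). The p53 decamer occurred in 5.56%, 4.76% and 4.37% (4.51% over all) and the CArG box of SRF in 1.34%, 0.574% and 0.941% (0.988% over all). A match is only a match of letters. Within promoters a GC box occurred in 49.2% of gained and 56.5% of kept control peaks, and an ETS site in 5.23% and 14.8%. Weak kept promoter peaks had a GC box in 43.7% (control) and 40.5% (cisplatin), and an ETS site in 5.54% and 6.32%. Beside these weak peaks, gained promoter peaks had the GC box more often and the ETS site slightly less often. Over all places, weak kept control and weak kept cisplatin peaks had a GC box in 21.2% and 19.7%. An ETS site occurred in 2.69% and 2.86% of them.

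Lost peaks lay on repeated sequence more often than gained ones. The 30 summit bases occurred elsewhere in the genome in 22.3% of lost, 13.6% of gained and 10.2% of kept control peaks, and in 17.4% of weak kept control peaks. More than 10 copies were found for 15.8% of lost and 6.90% of gained peaks. Of control peaks with a unique summit 10.5% were lost, and of those with more than 10 copies 32.8%. With unique summits alone the promoter share was 20.04% in lost and 37.4% in gained peaks.

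The share of lost and gained peaks varied between chromosomes. On chromosome 18, 18.9% of control peaks were lost (95% Wilson interval 15.5 to 22.8) and 26.2% of cisplatin peaks were gained (22.5 to 30.3). On chromosome 19, which is dense in genes and promoters, 8.33% were lost (7.01 to 9.87) and 16.3% gained (14.5 to 18.2). Chromosome 20 lost 16.6% and chromosomes 21 and 8 gained 24.6% and 24.3%. With the 20000 strongest peaks of each list, the lost shares were 11.9% on chromosome 18 and 10.9% on chromosome 19, and the gained shares 14.4% and 9.82%, so the gap between these chromosomes narrowed for both.

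**Figure D4:**
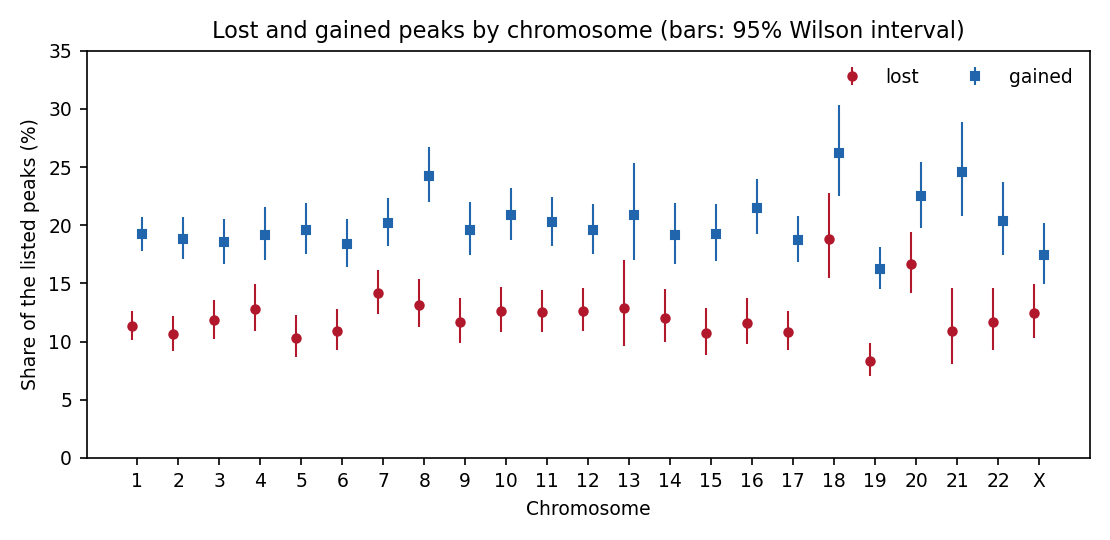
Share of the listed peaks of each chromosome (vertical axis, %) that were lost (circles) or gained (squares), with 95% Wilson intervals that cover counting error only. Chromosome 18 has high shares of both (18.9% and 26.2%) and chromosome 19 low shares of both (8.33% and 16.3%).

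Many of the regions that changed list in Acis cells were listed in the sensitive parental line. Of lost peaks, 53.9% overlapped a peak of A2780 control and 48.5% one of A2780 cisplatin, and 34.4% overlapped neither. Of gained peaks, 56.6% overlapped A2780 control and 59.2% A2780 cisplatin, and 29.1% neither. Kept control peaks were found there in 87.3% and 85.1% of cases and weak kept ones in 73.3% and 71.1%. Of lost peaks, 17.2% were in A2780 control alone and 11.7% in A2780 cisplatin alone, beside 6.44% and 3.86% of all Acis control peaks. Of gained peaks, 11.6% were in A2780 control alone and 14.3% in A2780 cisplatin alone, beside 6.41% and 5.07% of all Acis cisplatin peaks. A majority of the gained regions were thus listed as open in untreated A2780 cells.

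Promoters were then set beside RNA, a measure that played no part in classing the peaks. A gene counted as gained when the only peaks at its transcript starts were gained ones, as lost when they were only lost ones, and as both when any kept peak lay there. All annotated starts of a gene were used, so such a peak need not lie at its main promoter. By this rule 1394 genes were gained, 340 lost, 36 had lost and gained peaks and no kept one, 14487 had a kept peak and 45805 had none. RNA was tested in 15760 genes with edgeR's quasi-likelihood test, and 1474 (9.35%) were higher and 1962 (12.4%) lower after cisplatin at an adjusted p under 0.05. A change of at least 2-fold was found for 258 genes upward (1.64%) and 59 downward (0.374%).

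Genes with a gained promoter peak did not have higher RNA as a group. Of the 830 that could be tested, 83 (10.0%) were higher and 127 (15.3%) lower, and the median log2 fold change was -0.00. Of the 146 tested genes with a lost promoter peak, 12 (8.22%) were higher and 25 (17.1%) lower. Of the 10659 tested genes with a kept peak, 1079 (10.1%) were higher and 1500 (14.1%) lower. All 3 classes lay within 5 percentage points of the shares over all genes, and lower calls were the more frequent in each. The count of higher calls depended on the tool. DESeq2 called 533 genes higher and 1529 lower, with 25.8% of its calls upward against 42.9% with edgeR, and the shares of higher genes became 3.04%, 1.97% and 3.36% in the gained, lost and kept classes. Acis control libraries 2 and 3 differed by 0.95 times, and Acis cisplatin libraries 1 and 2 by 0.78 times, what counting noise gives after duplicate removal. With each pair merged into 1 sample, 795 genes were higher and 1506 lower.

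A majority of the genes whose RNA changed at least 2-fold, up or down, had no promoter peak. Of 255 annotated genes at least 2-fold higher, 106 had a kept promoter peak, 13 (5.10%) a gained one, 2 a lost one and 134 (52.5%) none at all. Of 58 annotated genes at least 2-fold lower, 35 (60.3%) had none. Among all tested genes 5.29% had a gained one and 25.6% no peak. Tested genes with no promoter peak had a median of 18.5 normalized counts in the control, against 247.5 for those with a kept peak. The height of kept promoter peaks moved little with RNA. The median ratio of fold enrichment was 0.995 for the 106 genes at least 2-fold higher, 0.980 for genes that did not pass the test and 0.905 for the 22 genes at least 2-fold lower. Across 10604 genes with a kept promoter peak, the rank correlation of this ratio with the RNA log2 fold change was 0.004, which is a description over genes of the same libraries.

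Sequences of promoter peaks that changed list are shown for 6 genes named below, as 100 bases of the hg38 plus strand centered on the summit, outside annotated exons, with GG and CC in capitals. They show the GC-rich character of gained promoter peaks. The first 4 were gained and the last 2 lost.
HBEGF, gained, chr5:140346753-140346852: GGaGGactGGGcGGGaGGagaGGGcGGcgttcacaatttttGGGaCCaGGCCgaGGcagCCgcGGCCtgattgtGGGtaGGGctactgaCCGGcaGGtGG
GPR3, gained, chr1:27392475-27392574: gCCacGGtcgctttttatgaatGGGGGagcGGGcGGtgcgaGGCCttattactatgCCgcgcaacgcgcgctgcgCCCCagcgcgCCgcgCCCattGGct
CDKN1A, gained, chr6:36679290-36679389: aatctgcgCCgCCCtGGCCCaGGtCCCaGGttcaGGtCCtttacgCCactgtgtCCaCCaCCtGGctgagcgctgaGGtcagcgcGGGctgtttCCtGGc
NSD1, gained, chr5:177133994-177134093: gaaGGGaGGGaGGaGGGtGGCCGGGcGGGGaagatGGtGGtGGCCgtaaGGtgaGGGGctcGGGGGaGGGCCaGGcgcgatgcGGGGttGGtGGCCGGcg
BCL2L11, lost, chr2:111123174-111123273: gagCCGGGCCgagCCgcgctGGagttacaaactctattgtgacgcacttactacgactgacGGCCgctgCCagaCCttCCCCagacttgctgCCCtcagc
RFX7, lost, chr15:56244416-56244515: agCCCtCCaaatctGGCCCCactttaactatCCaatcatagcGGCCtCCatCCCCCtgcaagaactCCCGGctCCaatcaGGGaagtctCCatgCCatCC

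The GC content of these 6 sequences was 67%, 68%, 66%, 75%, 62% and 56%, and a GC box was found in the 4 gained and in neither lost one. Guanine pairs on either strand numbered 27, 19, 22 and 37 in the gained and 15 and 24 in the lost sequences.

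Among genes with a gained promoter peak and higher RNA, PHLDA1, an immediate-early gene with a pleckstrin homology-like domain, changed most. Its normalized counts were 9.55, 6.39 and 13.7 in the control and 76.8, 60.1 and 56.0 in the cisplatin libraries, so the groups did not overlap (log2 fold change 2.70 ± 0.24 SE, adjusted p = 2.57e-09). Its gained peak at chr12:76031536-76032466 had a fold enrichment of 8.55 with the summit 3 bp upstream of a transcript start, and both A2780 lists had a promoter peak there. CDKN1A encodes the cell cycle inhibitor p21 and is the best known p53 target. Its counts were 153, 154 and 149 in control and 255, 253 and 299 in cisplatin libraries (log2 fold change 0.82 ± 0.08, adjusted p = 9.56e-09). The gained peak, at chr6:36679102-36679532 with a fold enrichment of 4.52, had its summit 569 bp downstream of the nearest of its annotated starts, and 9 unlisted control calls lay between the flanking control peaks, over 118628 bp.

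HBEGF, an epidermal growth factor receptor ligand released after stress, had counts of 82.8, 90.5 and 93.5 in control and 159, 166 and 166 in cisplatin libraries (log2 fold change 0.88, adjusted p = 7.35e-08), beside a gained peak of fold enrichment 11.4. The G protein-coupled receptor gene GPR3 went from 71.8 ± 4.47 to 138 ± 9.90 (SD, n = 3 libraries each, adjusted p = 3.35e-07), and DYNLL2, a dynein light chain, from 595 ± 13.4 to 792 ± 39.8 (adjusted p = 1.65e-07). In all 5 genes every cisplatin library lay above every control library, but these genes were chosen by their small adjusted p. Control and cisplatin libraries did not overlap in 5394 of all 15760 tested genes (34.2%), and in 35.2% of tested genes of the gained class.

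The genes with a gained promoter peak and lower RNA included 3 chromatin regulators among the 5 with the smallest adjusted p. ARID1B, a subunit of the SWI/SNF remodeling complex, fell from 467, 446 and 499.2 counts to 195, 218 and 228 (log2 fold change -1.14 ± 0.07, adjusted p = 2.26e-12), with a gained peak of fold enrichment 6.27 at chr6:156777324-156777566. CHD7, a chromatin remodeler, fell from 1628 ± 23.7 to 1097 ± 52.8 (adjusted p = 5.54e-12). NSD1, a histone H3 lysine methyltransferase, fell from 1617 ± 78.2 to 1102 ± 45.4 (adjusted p = 4.71e-11), with a gained peak of fold enrichment 4.41 at chr5:177133785-177134083. The glutamate receptor gene GRIN2B fell from 440.5 ± 18.8 to 257 ± 6.39 (adjusted p = 3.75e-10), and NAV1, a microtubule-associated protein, from 1113 ± 54.3 to 742 ± 64.05 (adjusted p = 1.22e-09). A gained promoter peak thus accompanied RNA changes of either sign.

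Among genes with a lost promoter peak and higher RNA, the log2 fold change was largest in CPT1B, at 2.20 from low counts. BCL2L11 encodes the pro-apoptotic protein BIM. Its counts were 39.3, 58.6 and 58.1 in control and 83.5, 80.7 and 65.8 in cisplatin libraries (log2 fold change 0.56 ± 0.14, adjusted p = 0.00435), and the lost peak at chr2:111122902-111123423 had a fold enrichment of 7.21. The adjusted p was 0.0842 without Acis control replicate 1 and 0.0542 with DESeq2. ENGASE, a cytosolic glycosidase, went from 152 ± 18.2 to 211 ± 20.7 (adjusted p = 3.41e-04) and LGALSL, a galectin-like protein, from 269.9 ± 14.97 to 335 ± 18.5 (adjusted p = 3.19e-04). The mitochondrial carnitine palmitoyltransferase CPT1B was at 2.12, 1.06 and 2.28 in control and 12.5, 2.95 and 10.8 in cisplatin libraries (adjusted p = 0.00558). Its adjusted p was 0.0537 without Acis cisplatin replicate 1. The kinesin gene KIFC2 went from 570.4 ± 39.0 to 654 ± 24.4 (adjusted p = 0.00612). It did not pass the test without Acis control replicate 3 (adjusted p = 0.0611) or with DESeq2 (0.162).

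Genes with a lost promoter peak and lower RNA were PLCL2, a phospholipase C-like protein, at 199.9 ± 10.3 and 116 ± 6.20 (adjusted p = 5.44e-08), LRCH1 at 256.2 ± 10.1 and 163 ± 13.1 (adjusted p = 1.72e-07), and RFX7, a transcription factor that cooperates with p53, at 774 ± 17.2 and 569 ± 49.7 (adjusted p = 2.58e-07). The myosin MYO5A was at 926 ± 33.5 and 723 ± 28.8 and the RAP1 exchange factor RAPGEF1 at 978 ± 32.8 and 787 ± 35.7. The groups did not overlap in any of these 5, which were also chosen by adjusted p. Over the tested genes of the lost class 34.9% did not overlap, beside 34.2% of all tested genes. Their lost peaks had fold enrichments of 5.69 to 10.3, and each gene had a promoter peak in at least 1 A2780 list.

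**Figure D5:**
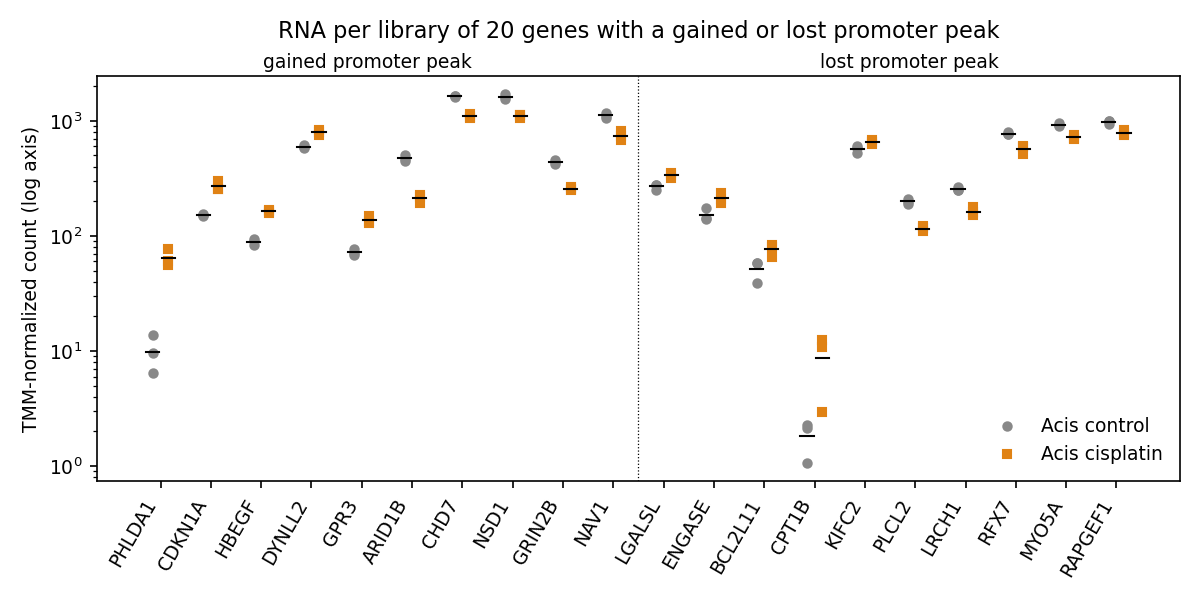
TMM-normalized RNA counts (vertical log axis) of 20 genes whose promoter peak was gained (left of the dotted line) or lost (right), with circles for the 3 Acis control and squares for the 3 Acis cisplatin libraries and a black bar at each mean. PHLDA1 rises most (9.87 to 64.3 normalized counts) and ARID1B falls most (471 to 213), both with a gained promoter peak.

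The promoter peaks of damage response genes were read beside all 19970 protein-coding genes, of which 10416 had a kept promoter peak and 899 (4.50%) a gained one, and beside the tested genes, of which 68.0% had a kept one. Of 34 immediate-early genes, 29 had a kept peak, 1 a gained one (PHLDA1) and 4 none, while 24 of the 33 tested rose and none fell. With DESeq2 21 rose. Over all 15760 tested genes 9.35% were higher and 12.4% lower, the background for the calls of this and the following lists. FOS, a partner of JUN in the AP-1 dimer, rose from 74.1 ± 6.43 to 269.8 ± 7.52 counts (adjusted p = 2.92e-14) while the fold enrichment at its promoter was 10.9 in control and 10.5 in cisplatin. JUN rose from 60.7 ± 10.6 to 136 ± 6.02 (adjusted p = 6.35e-08) at 22.9 and 24.4, and the phosphatase DUSP1 from 70.5 ± 5.38 to 139.7 ± 10.0 (adjusted p = 1.60e-07) at 15.6 and 17.3. EGR1 rose from 1154 ± 37.9 to 1392 ± 10.3 (adjusted p = 8.46e-07) at 7.41 and 8.51. The median ratio of fold enrichment over the list was 0.988, beside 0.976 over 14355 genes with promoter peaks in both lists. The ratio ranged from 0.615 at ZFP36, which encodes an RNA-binding protein that destabilizes mRNA and whose RNA rose from 219 to 263 (adjusted p = 0.0116), to 1.21.

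Of 30 p53 targets, 27 had a kept promoter peak, 1 a gained one (CDKN1A) and 2 none, and 18 of 29 tested rose and 1 fell. With DESeq2 14 rose. PLK3, a stress kinase, rose from 107 ± 20.9 to 268 ± 22.5 (adjusted p = 2.09e-10) with a fold enrichment of 17.7 and 19.2. BTG2, an antiproliferative gene that is in both lists, rose from 199 ± 2.48 to 449 ± 6.71 (adjusted p = 1.07e-13) at 12.3 and 11.8. The single fall was in PPM1D, the phosphatase that ends the p53 response, from 466 ± 19.9 to 404 ± 14.4 (adjusted p = 0.00447). The death receptor gene FAS had the largest ratio of the list, with its kept promoter peak at 9.72 in control and 16.2 in cisplatin, and RNA of 281 and 271 counts (adjusted p = 0.724).

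The 35 nucleotide excision repair genes had a kept promoter peak in 33 cases and a gained one in 2, the DNA ligase LIG3 (fold enrichment 9.35) and the deubiquitinase USP7 (7.75). Of 34 tested, 2 rose and 4 fell, shares not above those over all tested genes (9.35% and 12.4%). With DESeq2 size factors in edgeR 1 rose and 8 fell, beside 1288 and 2208 of all 15760 genes. Over the fits that left out 1 Acis library, 1 rose and 1 to 6 fell, with 1 falling when Acis cisplatin replicate 1 or 2 was left out. The damage sensor DDB2, itself a p53 target, rose from 243 ± 22.9 to 328 ± 6.62 (adjusted p = 2.25e-05) at a fold enrichment of 14.7 and 14.8, and the sliding clamp PCNA from 581 to 637 (adjusted p = 0.0385). USP7 fell from 1342 ± 36.9 to 1208 ± 29.4 (adjusted p = 0.00560), and LIG3 was at 768 and 715 (adjusted p = 0.0788). LIG3 passed the test with DESeq2 size factors (adjusted p = 0.0357) and without Acis cisplatin replicate 3 (0.0267). Of 36 genes of platinum transport and detoxification, 27 had a kept promoter peak, 1 a gained one (the glutathione transferase MGST1) and 8 none, and 1 of 29 tested rose and 2 fell. The efflux pump ABCC1, which had no promoter peak in either list, fell from 1256 ± 35.8 to 964.5 ± 32.4 (adjusted p = 1.75e-08), and the oxidative stress gene OSGIN1 rose from 141.6 ± 10.5 to 199 ± 6.42 (adjusted p = 2.80e-05). Genes that the study chose on these samples for real-time PCR are no independent evidence. Of 7 such genes, 6 had a kept promoter peak, SNAI1 had none, 5 rose and TBR1 fell, and with DESeq2 4 rose and none fell.

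Replication-dependent histone genes fell together in RNA while their promoters kept their peaks. Of 41 genes, 36 had a kept peak, 1 a gained one (H3C10) and 4 none. Of 38 tested, 34 fell and none rose, beside 12.4% lower over all tested genes. H1-3, a linker histone, fell from 366 ± 7.93 to 121 ± 10.3 (adjusted p = 1.38e-13) at a fold enrichment of 12.2 and 9.88. H2BC11 fell from 255 ± 9.37 to 132 ± 3.18 (adjusted p = 3.26e-10) at 14.01 and 17.04. Over the list the height ratio had a median of 1.04, with 25 promoters higher and 11 lower after cisplatin. Histone genes are near-identical copies that often share a promoter peak with a neighbor, so their separate values are uncertain.

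Chromatin remodeling and acetylation genes held the most gained promoters of the lists examined. Of 30 genes, 20 had a kept peak, 7 a gained one and 3 none. The gained share was 23.3%, beside 4.50% of all 19970 protein-coding genes, a description of a list that was chosen with earlier results known. The peaks may lie at alternative transcript starts, so the share does not show that main promoters opened. Among the 7 were ARID1B and CHD7, named above, the remodeler EP400, and the acetyltransferases CREBBP, KAT2A and KAT2B. Of the list's 29 tested genes 14 fell and 1, BRD2, rose. Of all tested protein-coding genes with a kept promoter peak 15.5% were lower, and of those with a gained one 17.2%. CREBBP fell from 1899 ± 74.4 to 1423 ± 107 (adjusted p = 5.84e-08) and EP400 from 1894 ± 93.8 to 1454 ± 97.2 (adjusted p = 2.59e-06). KAT2A, at 801 and 790 counts (adjusted p = 0.813), and KAT2B, at 166 and 144 (adjusted p = 0.244), did not pass the test, though KAT2B did without Acis control replicate 1 (adjusted p = 0.0193). The gained peaks of these 7 genes had fold enrichments of 4.16 to 13.2, and EP400, the highest, had its peak at chr12:131949512-131950043. All 7 had a promoter peak in at least 1 A2780 list. Between the control peaks flanking them lay 3 to 24 unlisted control calls.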

How the data were processed

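The authors trimmed ATAC-seq reads with Cutadapt 1.15, aligned them to hg38 with Bowtie2 2.4.1, removed chromosome Y, mitochondrial and duplicate reads, and called peaks with MACS2 for each replicate and for merged replicates, keeping peaks with more than 50% overlap between all replicates of a condition. The deposited narrowPeak lists hold fold enrichment, a ratio over local background, in column 7 and -log10 q in column 9. RNA-seq reads were aligned with STAR 2.7.3 and freed of duplicates, and the deposited table holds raw counts per gene from HTSeq 0.11.1 with the reverse strand setting. XR-seq samples and the authors' own comparisons were not used here.

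Peaks were compared with bedtools 2.31.1 (at least 1 bp shared) in Python 3.11.15, placed on GENCODE 44 (promoter, exon, intron, intergenic, in this order), and read against hg38. RNA was fitted over all 12 libraries with edgeR 4.0.16 (quasi-likelihood test, TMM, filterByExpr, Benjamini-Hochberg adjustment over 15760 genes) in R 4.3.3, and with DESeq2 1.42.0 as an alternative. Normalized counts are counts scaled by TMM factors to a common library size. Replicate numbers were not treated as pairs, since the correlations of deviations between same-numbered libraries were -0.03, 0.00 and -0.07. Overlap and RNA steps were tested on simulated data.

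Named were the 10 strongest lost and gained peaks, the 5 kept pairs with the largest and smallest ratio at a fold enrichment of at least 5, the 5 genes of each promoter class with the smallest adjusted p in each direction, list members with a promoter peak in 1 list, and well-known or real-time PCR genes. A few genes and a region that these rules name are not reported here. Members and lists were chosen with earlier results of these data known.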

Additional observations from a re-analysis of the deposited data

How the results depend on the processing

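Requiring a fold enrichment of at least 5, more overlap, a neighbor within 500 bp or unique summits left lost and gained counts within 1.5 times of 2914 and 5404. Cuts by -log10 q set how many peaks of each list were compared, so they could not decide the balance of lost and gained peaks. The excess of gained peaks was absent at a -log10 q of at least 20 (4648 lost, 2024 gained). It was also absent with peaks of at least 50 looked up in the whole other list (563 and 296). Among the 20000 strongest peaks of each list 2338 were gained. Peaks were then wider, at 510 bp lost, 392.5 gained, 670 and 576 kept, with promoter shares of 23.4%, 41.6%, 58.3% and 58.0%, GC of 53.5%, 59.5% and 61.5% in lost, gained and kept control peaks, guanine pairs of 16, 19.5 and 20, ratios of 0.964 (height) and 0.922 (width), 11.9% and 10.9% lost and 14.4% and 9.82% gained on chromosomes 18 and 19. Reciprocal overlap gave widths of 530.0, 376, 632 and 557 bp and a width ratio of 0.919. A fold enrichment of at least 5 gave 376 bp for gained peaks and a height ratio of 0.952. Promoter shares of lost, gained, kept control and kept cisplatin peaks were 11.7%, 24.3%, 48.2% and 47.2% within 100 bp, 29.9%, 46.8%, 60.0% and 60.0% within 2000 bp, 12.8%, 28.7%, 46.0% and 45.7% with protein-coding genes, and, in analyses chosen after the data were seen, 20.04%, 37.4%, 55.7% and 55.4% with unique summits and 40.03% and 37.9% for kept peaks at a fold enrichment of 5 to 10. Unique summits gave GC of 53%, 57.5% and 61% and guanine pairs of 16, 19 and 20. Windows of 100 bases gave GC of 53%, 58% and 61% and 19 guanine pairs in kept peaks. Within 2000 bp no histone gene had a gained promoter peak alone (0). Overlap of at least 50% put 86.6% and 83.2% of kept control peaks in A2780 control and cisplatin and 83.8% of kept cisplatin peaks in A2780 cisplatin.

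RNA shares moved with the test. Higher genes were 3.04%, 1.97% and 3.36% (gained, lost, both) with DESeq2, 5.23%, 3.97% and 5.22% with the closest libraries merged (chosen after the data were seen), and 6.91% and 7.55% (gained, both) without a filter. Lower genes (gained, both) were 11.1% and 11% with DESeq2, 11.8% and 10.8% merged, and 12.7% and 12.6% without a filter. With DESeq2 size factors in edgeR, 8.68% were higher and 16.04% lower in the class with kept peaks. DESeq2 found 143 genes at least 2-fold higher, and 110 were at least 2-fold lower without a filter. Leaving out 1 library gave 217 to 281 and 54 to 76 genes at least 2-fold higher and lower, higher shares of 6.37% to 8.16% (gained), 3.95% to 7.33% (lost) and 6.77% to 9.37% (both), and lower shares of 11.4% to 15.2%, 14.5% to 16.7% and 11.2% to 13.3%. KAT2A, which did not pass the test, had log2 fold changes of -0.052 to 0.0073, with a positive sign without Acis control replicate 1 (0.0060) or Acis cisplatin replicate 2. Of the other named genes 12 values lost the threshold and 5 crossed it, RHOV among the former (adjusted p = 0.290 with DESeq2). The replicate block, on numbers that did not pair the libraries, gave 10.5% higher and 15.7% lower genes in the gained class and 258 and 61 genes at least 2-fold changed, and moved no count of calls by over 1.5 times (platinum transport and detoxification, 2 lower genes in the fit without it and 3 with it). The cause of these shifts was not tested.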

Other observations

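Some promoters changed list beside a peak that was kept. Of the 14487 genes with a kept promoter peak, 715 also had a gained peak at one of their transcript starts, 181 a lost one and 19 both kinds. Among them were SMARCA4, the ATPase of the SWI/SNF complex, ARID1A, its partner subunit, and the remodeler CHD4, each with a kept and a gained peak. SMARCA4 RNA fell from 2699.5 ± 109 to 2232 ± 83.6 normalized counts (adjusted p = 1.08e-06), ARID1A RNA fell from 2183 ± 73.6 to 1689.8 ± 66.0 (adjusted p = 2.24e-08), and CHD4 RNA was at 195.5 and 191.5 (adjusted p = 0.873). The immediate-early genes KLF10 and NFKBIA, an inhibitor of NF-kappa B, also had a gained peak beside a kept one, and their RNA rose by 0.19 and 0.29 on the log2 scale (adjusted p = 0.0111 and 0.000994). The p53 target BBC3, which encodes the pro-apoptotic protein PUMA, had a gained peak beside a kept one, and its RNA rose from 59.2 ± 15.9 to 99.5 ± 6.84 (adjusted p = 1.58e-04). FAS and OSGIN1 had a lost peak beside a kept one.

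The 36 genes whose promoters held lost and gained peaks but no kept one included 32 that were tested, of which 3 were higher and 10 (31.2%) lower. The class was formed after results were seen, and no test of it was made.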
